A study of Homo sapiens with 24 samples.

Results

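The early transcriptional response of the human leukaemia line OCI-AML3 to RMC-7977 was read from 8 poly(A) RNA libraries, out of 23 analysed for the whole series. OCI-AML3 is an acute myeloid leukaemia line whose labelled genotype is NRAS Q61L, an activating change in a RAS gene. RMC-7977 binds RAS proteins in their active, GTP-loaded state. The members of the comparison are the 4 libraries of OCI-AML3 given RMC-7977 at 25 nM for 2 h and the 4 libraries of OCI-AML3 given DMSO, the solvent, compared across all 13033 genes of the table. Libraries were assigned by the name of each column, which the labels repeat. For context, 4 libraries of the FLT3-ITD line Molm-14 at 2 h of the same dose, 4 of Molm-14 in DMSO, and 3 of OCI-AML3 at 24 h were used. All cells were grown in RPMI with 10% serum, and the same number of cells was treated per condition. The labels state no time for the DMSO groups and give all libraries the same batch. Whether replicate libraries stem from independent cultures is not in the labels, so p-values measure only their spread, which may be technical. Each line stands as a single model of its genotype, and no matched line without the NRAS change is analysed here.

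RAS proteins are switches at the inner face of the cell membrane. Loaded with GTP, they start the kinase cascade of RAF, MEK and ERK, and they also engage phosphoinositide 3-kinase. ERK phosphorylates transcription factors that drive early genes, among them the genes of ERK's own inhibitors. Because those inhibitors have short-lived messages, their levels are widely used as a readout of ERK activity, and in myeloid leukaemia the same cascade feeds the transcription factor MYC and the D-type cyclins.

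Values are CPM, reads of a gene over the library's effective size, given as mean ± SD over 4 libraries unless the 4 values are listed in replicate order. Fold changes are log2 values of RMC-7977 at 2 h over DMSO, given ± SE. They rest on limma with Benjamini-Hochberg adjustment over all 13033 genes, computed as log2(CPM + 0.105), a scale that shrinks the change of genes with few reads. A call, higher or lower, needed both an adjusted p below 0.05 and a log2 fold change of at least 1 in size. Only called genes are said to have risen or fallen. The recovered effective sizes of the 8 libraries ran from 16858600 to 22376600 reads. The first principal component of the 8 libraries held 71.5% of the variance and separated the groups. Markers of acute myeloid leukaemia cells summed to 2455 to 2597 CPM at 2 h and 2356 to 2480 CPM in DMSO, with 13 of 14 measured, KIT not being analysed here. Most markers of other cell types, among them CD3D, HBB and EPCAM, were not analysed here. The 2 measured of 12 T and NK cell markers summed to 1.64 to 2.62 CPM at 2 h and 1.42 to 2.61 CPM in DMSO, and the 2 of 10 B cell markers to 1.55 to 2.7 CPM at 2 h and 0.782 to 1.99 CPM in DMSO. The 2 of 14 markers of red cells and platelets summed to 5.24 to 6.12 CPM at 2 h and 4.11 to 6.01 CPM in DMSO. The 3 of 14 epithelial and stromal markers summed to 32.2 to 38.1 CPM at 2 h and 32.4 to 36.4 CPM in DMSO, nearly all of it PECAM1, which myeloid cells also express.

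After 2 h, 858 genes were called, 6.58% of those tested. Of these, 421 were higher (3.23%) and 437 lower (3.35%). In bulk RNA of this kind, fewer cells of a type and less RNA per cell cannot be told apart. Changes of small size were far more common than called ones. An adjusted p below 0.05 was reached by 8106 genes, 4086 higher and 4020 lower, and 5457 of these moved by less than 1.5-fold. The median log2 fold change of all genes was 0.02. Large changes were mostly losses. A log2 change of at least 2 was found in 31 genes that rose and 57 that fell, and one of at least 3 in 4 that rose and 14 that fell. For 7089 genes, 54.4% of those tested, every library at 2 h lay above or below every DMSO library, so such a separation is the common case in this comparison. It held for all called genes except 18.

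The genes that fell had many more reads than those that rose, at similar transcript lengths (median 3357 bases for genes that fell and 3178 bases for genes that rose, in GENCODE 29). The median level in DMSO was 30.9 CPM for the 437 genes that fell, 2.07 CPM for the 421 that rose and 28.8 CPM over all genes. A level of at least 5 CPM in the group where it was higher was reached by 369 of the genes that fell and 213 of those that rose. The genes that fell made up 1.17% of all CPM at 2 h, against 2.81% in DMSO. The genes that rose made up 0.862% at 2 h, against 0.334% in DMSO. Called genes also had compact loci. Their median span in RefSeq was 19878 bases for the genes that rose and 19564 bases for those that fell, against 28344 bases for all genes tested, and 15.9% and 16.6% of them had 1 or 2 exons in the longest GENCODE 29 transcript, against 8.55% of all.

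**Figure D1:**
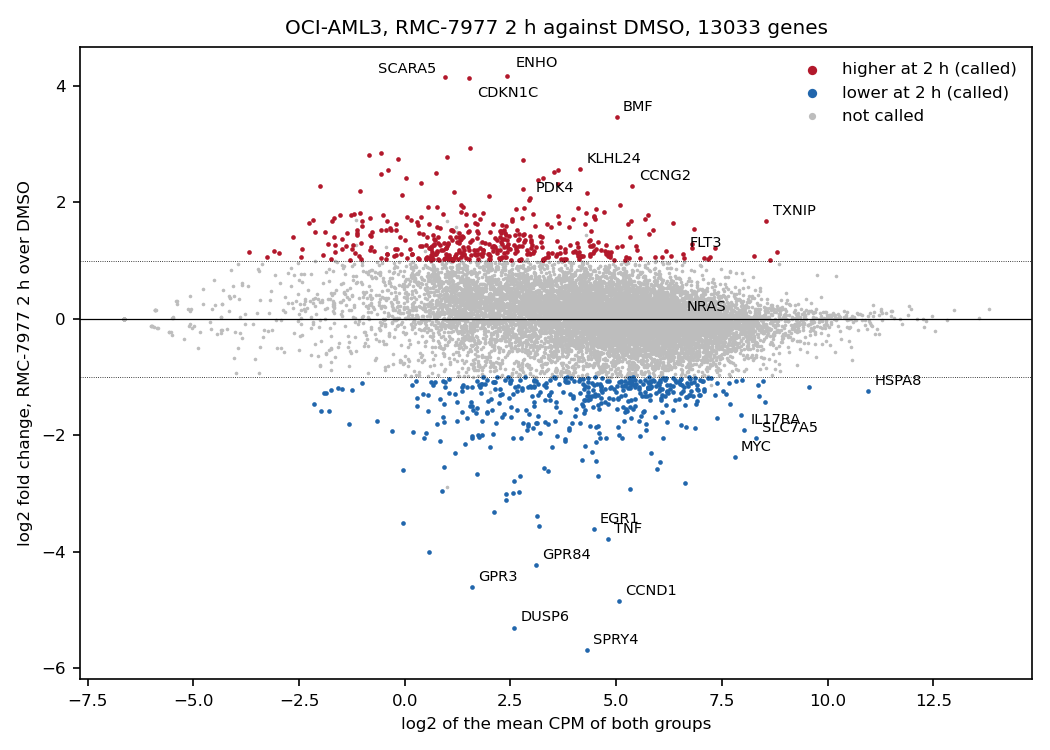
Log2 fold change of RMC-7977 at 2 h over DMSO (vertical axis) against the log2 of the mean CPM of both groups (horizontal axis), 1 point per gene, OCI-AML3. Dotted lines mark a log2 fold change of 1 in size; SPRY4 (-5.70), DUSP6 (-5.31) and CCND1 (-4.85) are the lowest points, ENHO (4.18) is among the highest, and NRAS sits at 0.03.

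Of 34 measured genes of ERK output and its feedback, 16 fell, 2 rose and 16 were not called. That is 52.9% called, against 6.58% of all genes. The median log2 fold change was -0.95, against 0.02 for all genes. SPRY4, an inhibitor of signalling from receptors to RAS, showed the deepest loss among the genes selected by size. It had 0.613, 0.926, 0.616 and 0.488 CPM at 2 h, against 38.3, 41.1, 39.0 and 36.9 CPM in DMSO, a log2 fold change of -5.70 ± 0.19 (limma adjusted p = 7.34e-21). Every library at 2 h was under 1 CPM, and the groups lay far apart. DUSP6, a phosphatase that inactivates ERK in the cytoplasm, had 0.111, 0.218, 0.205 and 0.271 CPM at 2 h, against 9.86, 12, 13.2 and 12.3 CPM in DMSO (-5.31 ± 0.20). That is 15 read equivalents over the 4 libraries at 2 h, against 954 in DMSO. Few reads of DUSP6 were left in any library at 2 h, and 39.4% of its exon bases are shared with AC024909.2 in GENCODE 29.

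The other members of these families moved unequally. Of 10 phosphatases of MAP kinases, 3 fell and 1 rose. DUSP2, which acts in the nucleus, had 1.34, 1.58, 1.49 and 1.3 CPM at 2 h, against 17.7, 13.2, 18.4 and 14.6 CPM in DMSO (-3.38 ± 0.12). DUSP4, its nuclear relative, averaged 1.38 ± 0.19 CPM at 2 h and 11.6 ± 0.52 CPM in DMSO (-2.98 ± 0.26). DUSP10, which prefers the stress kinases p38 and JNK, went the other way. It had 16.5, 17.9, 17.3 and 19.9 CPM at 2 h, against 7.57, 7.22, 7.52 and 7.84 CPM in DMSO (1.24 ± 0.09), and stood with the genes that rose. DUSP1 (-0.96), DUSP5 (-0.94) and DUSP7 (-0.93) were lower in every library at 2 h than in any DMSO library but did not reach the size of a call. Of 6 Sprouty and SPRED inhibitors, 4 fell: beside SPRY4 these were SPRY2 (13.6 ± 0.85 CPM at 2 h, 56.8 ± 2.1 CPM in DMSO), SPRED2 (9.13 at 2 h, 28.4 CPM in DMSO) and SPRED1 (11.5 at 2 h, 30.1 CPM in DMSO), which recruits neurofibromin to RAS. These 3 kept a clear signal at 2 h, unlike SPRY4.

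Among 7 ETS transcription factors, ETV5 and ETV1 fell and ETS2 rose. ETV5 had 1.5, 1.91, 1.49 and 1.79 CPM at 2 h, against 11.1, 12.3, 11.1 and 11.3 CPM in DMSO (-2.71 ± 0.15). ETS2, itself a substrate of ERK, was already abundant in DMSO and rose to 405, 416, 420 and 409 CPM at 2 h, against 197, 192, 191 and 202 CPM in DMSO (1.07 ± 0.04, limma adjusted p = 3.8e-19). The 8 values fell into separate ranges with little spread. ETV4 was lower without a call (-0.91 ± 0.23). Of 11 further ERK targets, 7 fell and none rose. FOSL1, a partner of JUN in AP-1, averaged 1.37 ± 0.40 CPM at 2 h and 16.7 ± 1.1 CPM in DMSO (-3.56 ± 0.16). PHLDA1, a pleckstrin homology protein, averaged 9.82 CPM at 2 h and 38.8 CPM in DMSO (-1.97 ± 0.10). IER3 was down to 5 read equivalents over 4 libraries at 2 h, against 148 in DMSO. MIR222HG, the host transcript of the miRNAs miR-221 and miR-222, averaged 1.24 ± 0.13 CPM at 2 h and 10.6 ± 0.45 CPM in DMSO (-3 ± 0.18), and PHLDA2, a relative of PHLDA1, 1.13 ± 0.44 CPM at 2 h and 9.39 ± 0.88 CPM in DMSO (-3.01 ± 0.16).

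**Figure D2:**
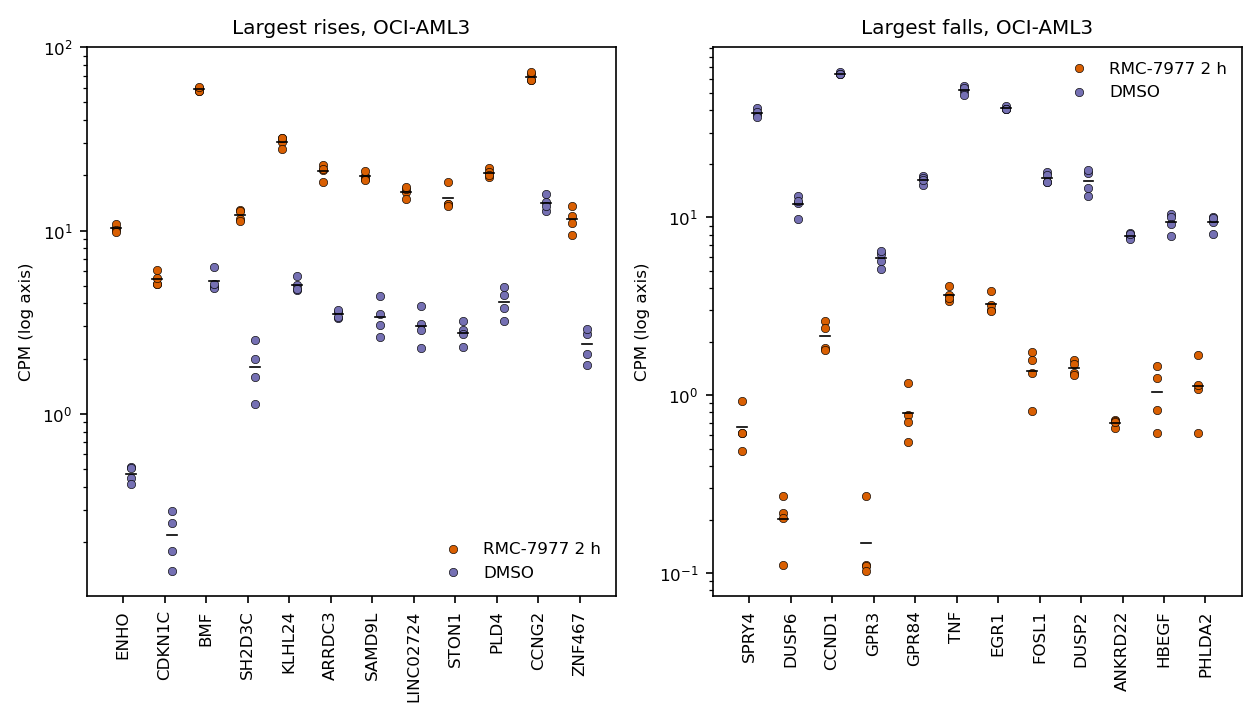
CPM on a log axis in each library for the 12 largest rises (left panel) and the 12 largest falls (right panel) by the naming rule, with RMC-7977 at 2 h in orange left of DMSO in purple and the group mean as a bar. No 2 h library overlaps a DMSO library in any of these genes, as the rule requires, and the 4 libraries of each group lie close together except where reads are few, as for GPR3 at 2 h (0.103 to 0.271 CPM).

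Of 23 immediate early factors, the transcription factors that answer a stimulus first, 3 fell and 2 rose (median -0.32). That is 21.7% called, against 6.58% of all genes. EGR1, a zinc finger factor switched on by ERK through the serum response factor and its ETS partners, had 3.01, 3.22, 2.98 and 3.85 CPM at 2 h, against 42.1, 40.9, 40.7 and 40.7 CPM in DMSO (-3.62 ± 0.20, limma adjusted p = 2.84e-15). Its RefSeq promoter (GRCh38.p14, chr5:138465354-138465425, plus strand) holds a pair of CArG boxes, the motif that the serum response factor binds. It is shown because it is the classical target sequence of this pathway, with the boxes in capitals.
EGR1: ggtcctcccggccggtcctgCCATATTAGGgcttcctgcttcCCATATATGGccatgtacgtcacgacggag
A CArG box was found in the promoters of 1.2% of the genes that fell, 1.9% of those that rose and 1.02% of all tested, from 250 bases before to 50 after the start. The AP-1 motif TGACTCA was in 5.09% of promoters of genes that fell, 3.8% of those that rose and 2.85% of all tested. The cAMP response element TGACGTCA was in 3.59% of promoters of genes that fell, 0.633% of those that rose and 3.18% of all tested. The ETS motif CCGGAAGT was in 4.79% of promoters of genes that fell and 2.85% of those that rose, both under the 9.04% of all tested. These are shares of letters in the windows, with no test. Of 8 FOS and JUN family members 1 was called. FOS had 34.1, 29.4, 31.1 and 35.4 CPM at 2 h, against 31.7, 36.4, 36.3 and 33.1 CPM in DMSO (-0.08 ± 0.13, limma adjusted p = 0.606), and the groups overlapped. JUN was lower without a call (-0.38 ± 0.11), as were SRF, the serum response factor itself (-0.81 ± 0.06), NR4A1 (-0.88 ± 0.09) and BHLHE40 (-0.99 ± 0.05). BATF3, a dimer partner of JUN, fell to 6.13, 6.33, 6.16 and 6.47 CPM at 2 h, against 25.4, 22.1, 25.7 and 20.3 CPM in DMSO (-1.88 ± 0.13). EGR3 fell from a low level (17 read equivalents at 2 h, 135 in DMSO). The 2 that rose were scarce, namely the orphan receptor NR4A2 (2.51 CPM at 2 h, 0.902 CPM in DMSO) and ID3, an inhibitor of helix-loop-helix factors (7.68 CPM at 2 h, 2.78 CPM in DMSO).

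Genes that control entry into the cell cycle were called in both directions. Of 18 cyclins and kinases of G1, 3 were called, all lower, and of 10 inhibitors 2 were called, both higher. Together 17.9% of this list was called, against 6.58% of all genes. CCND1, cyclin D1, is counted in the list of ERK targets and not among these 18. It had 1.84, 1.80, 2.62 and 2.38 CPM at 2 h, against 64.2, 65.8, 63.9 and 64.0 CPM in DMSO (-4.85 ± 0.13, limma adjusted p = 3.35e-23). CCND3, cyclin D3, fell as well, with 74.2, 77.8, 78.2 and 83.5 CPM at 2 h, against 274, 243, 269 and 236 CPM in DMSO (-1.70 ± 0.05). No library of one group overlapped the other for either gene. CCND2 was under 1 CPM in both groups (0.302 CPM at 2 h, 0.198 CPM in DMSO). CDC25A, the phosphatase that activates CDK2, averaged 30.0 ± 1.3 CPM at 2 h and 75.4 ± 3.7 CPM in DMSO (-1.32 ± 0.07), and CCNE2 averaged 5.91 CPM at 2 h and 15.6 CPM in DMSO (-1.40 ± 0.11). CDK4 (-0.33 ± 0.04) and CDK6 (-0.12 ± 0.04) were not called. CDKN1C, the CDK inhibitor p57, rose to 5.13, 5.12, 5.49 and 6.12 CPM at 2 h, against 0.255, 0.139, 0.179 and 0.296 CPM in DMSO (4.14 ± 0.28, limma adjusted p = 1.81e-13). CDKN2B, the inhibitor p15, averaged 6.54 CPM at 2 h and 2.54 CPM in DMSO (1.35 ± 0.21). CDKN1B, p27, was higher without a call (0.47 ± 0.05), and CDKN1A, p21, overlapped between the groups (-0.04 ± 0.04).

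MYC had 69.3, 70.2, 70.0 and 79.7 CPM at 2 h, against 382, 372, 381 and 362 CPM in DMSO (-2.37 ± 0.04, limma adjusted p = 4.31e-27). Its relative MYCL was also called lower, with a wide spread at 2 h. It had 1.83, 1.34, 3.7 and 4.3 CPM at 2 h, against 6.1, 5.28, 5.79 and 6.54 CPM in DMSO (-1.20 ± 0.48, limma adjusted p = 0.0395). None of the 9 MAX partners and MLX factors was called. MXD4, which competes with MYC for MAX, stood just under the size of a call (90.3 ± 3.8 CPM at 2 h, 46.2 ± 4.6 CPM in DMSO, 0.97 ± 0.06), and MLX was lower (-0.71 ± 0.04).

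Genes of ribosome assembly were lower, most of them by less than the size of a call. Of 127 members, 39 fell and none rose (median -0.72), 30.7% of the list against 3.35% of all genes called lower. At an adjusted p below 0.05, 112 were lower, beside 4020 of all 13033 genes. Calls were spread over the steps, with 7 of 30 polymerase subunits and factors, 13 of 49 members of the small subunit processome and its snoRNPs, and 19 of 48 assembly factors of the large subunit. POLR1G, a subunit of RNA polymerase I, showed the deepest fall of the list, with 6.26, 6.99, 8.66 and 7.52 CPM at 2 h, against 33.6, 36.4, 35.6 and 38.3 CPM in DMSO (-2.28 ± 0.09). NIP7 had 28.6, 29.7, 28.5 and 27.9 CPM at 2 h, against 86.6, 94.1, 96.0 and 95.4 CPM in DMSO (-1.69 ± 0.05), and URB2 had 20.6, 21.7, 21.4 and 20.4 CPM at 2 h, against 71.9, 72.7, 70.5 and 71.0 CPM in DMSO (-1.76 ± 0.06). Both act in large subunit assembly, and neither has overlapping groups. RRS1, which brings the 5S particle to the large subunit, averaged 40.7 ± 1.5 CPM at 2 h and 120 ± 6.1 CPM in DMSO (-1.56 ± 0.05). DDX21, a helicase of rRNA processing, averaged 119 CPM at 2 h and 374 CPM in DMSO (-1.65 ± 0.06). The highly expressed nucleolar proteins moved less, with nucleolin, NCL, at -0.49 ± 0.05, fibrillarin, FBL, at -0.22 ± 0.04 and NPM1 at -0.13 ± 0.05, none of them called.

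The E-box CACGTG, the core sequence bound by MYC and MAX but also by other helix-loop-helix factors, was looked for in the RefSeq promoters of 650 of the 858 called genes. It lay in 63 of 334 promoters of genes that fell (18.9%), in 29 of 316 of genes that rose (9.18%) and in 10.3% of all 10502 promoters of tested genes. All RefSeq promoters of this length held it at 7.43%. Within the ribosome assembly list it lay in 14 of 30 promoters of genes that fell and in 24 of 76 of genes that were not called, so it was frequent on both sides of the call. The following stretches upstream of the start (GRCh38.p14) show it in capitals for members that fell: POLR1G (chr19:45406612-45406643, plus strand), DDX31, a helicase of the list (chr9:132669984-132670025, minus strand), and SURF6, a nucleolar matrix protein (chr9:133336387-133336432, minus strand).
POLR1G: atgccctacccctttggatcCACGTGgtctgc
DDX31: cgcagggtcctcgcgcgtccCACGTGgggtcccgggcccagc
SURF6: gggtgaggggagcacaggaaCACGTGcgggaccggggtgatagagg
DDX31 had 13.3, 12.8, 15.8 and 15.1 CPM at 2 h, against 43.5, 37.8, 38.7 and 35.1 CPM in DMSO (-1.44 ± 0.07). SURF6 had 60.0, 58.8, 58.1 and 63.9 CPM at 2 h, against 141, 130, 142 and 128 CPM in DMSO (-1.17 ± 0.05). The presence of the letters is a description of these windows and does not show a bound site.

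Genes that supply growth with amino acids, nucleotides and folded protein were lower too, with fewer calls. Of 39 genes of amino acid transport and the ATF4 programme, 6 fell and none rose (median -0.36). That is 15.4% of the list, against 3.35% of all genes called lower. Of 15 transporters alone 4 fell (median -0.70). SLC7A5, which imports leucine and other large neutral amino acids, had 122, 122, 117 and 128 CPM at 2 h, against 522, 508, 510 and 483 CPM in DMSO (-2.05 ± 0.05, limma adjusted p = 4.58e-24). SLC1A5, a glutamine importer, averaged 109 ± 1.4 CPM at 2 h and 302 ± 14 CPM in DMSO (-1.47 ± 0.04). TRIB3, a pseudokinase induced in amino acid stress, also fell (-1.49 ± 0.06), so the transporters did not move against the stress genes of the same list. Of 38 genes of nucleotide and polyamine synthesis 3 fell (median -0.33), 7.89% of the list against 3.35% of all genes called lower. At an adjusted p below 0.05, 29 were lower, beside 4020 of all 13033 genes. The 3 were CTPS1, PPAT and AMD1. CTPS1, which makes CTP, averaged 64.4 ± 1.5 CPM at 2 h and 143 ± 4.7 CPM in DMSO. PPAT, which commits to purine synthesis, averaged 28.6 CPM at 2 h and 64.6 CPM in DMSO. AMD1 of polyamine synthesis averaged 82.2 ± 4.0 CPM at 2 h and 189 ± 8.2 CPM in DMSO. MAT2A, which makes the methyl donor S-adenosylmethionine and belongs to no list, had 196, 199, 209 and 195 CPM at 2 h, against 552, 543, 518 and 538 CPM in DMSO (-1.43 ± 0.03).

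Of 50 chaperones and genes of the unfolded protein response, 5 fell and none rose (median -0.47). That is 10% of the list, against 3.35% of all genes called lower. At an adjusted p below 0.05, 42 were lower, beside 4020 of all 13033 genes. HSPA8, the constitutive HSP70 of the cytosol, lost more CPM than any other gene. It had 1194, 1217, 1174 and 1114 CPM at 2 h, against 2848, 2706, 2917 and 2685 CPM in DMSO (-1.25 ± 0.04, limma adjusted p = 7.25e-22). XBP1, the factor spliced in the unfolded protein response, averaged 66.0 ± 1.3 CPM at 2 h and 176 ± 4.8 CPM in DMSO (-1.41 ± 0.04), and HSPA5, the chief chaperone of the endoplasmic reticulum, was lower without a call (-0.80 ± 0.04). HSPA1B fell (60.2 CPM at 2 h, 150 CPM in DMSO), but it has a near-identical copy, HSPA1A, and its share of the reads is uncertain. Of 29 genes of glucose uptake and glycolysis, 2 fell (median -0.21): the glucose carrier SLC2A1 (36.2 CPM at 2 h, 72.6 CPM in DMSO) and the lactate carrier SLC16A1 (70.6 ± 5.5 CPM at 2 h, 144 ± 5.5 CPM in DMSO). The SLC16A1 call ends without 2 h replicate 4 (-0.98). HK2, a hexokinase, was at -0.87 ± 0.05. Of 33 sterol and fatty acid genes, 1 fell and 1 rose, the riser being the cholesterol exporter ABCA1 (9 ± 0.72 CPM at 2 h, 3.26 ± 0.34 CPM in DMSO). The glycolysis calls were 6.9% of the list, against 3.35% of all genes called lower. At an adjusted p below 0.05, 19 glycolysis genes were lower, beside 4020 of all 13033 genes. The sterol calls, 1 in each direction, were 6.06% of the list, near the 6.58% of all genes. LPCAT1, a lipid remodelling enzyme outside the lists, had 454, 460, 458 and 483 CPM at 2 h, against 1070, 1036, 1062 and 1018 CPM in DMSO (-1.18 ± 0.04).

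Of 24 measured cytokines and chemokines, 8 fell, 1 rose and 15 were not called (median -0.33). That is 37.5% called, against 6.58% of all genes. TNF had 3.68, 4.09, 3.39 and 3.53 CPM at 2 h, against 51.2, 54.5, 53.5 and 49.1 CPM in DMSO (-3.79 ± 0.10, limma adjusted p = 6.79e-24). The neutrophil attractants CXCL8 and CXCL1 fell with it. CXCL8 had 20.8, 21.3, 20.4 and 18.3 CPM at 2 h, against 104, 112, 116 and 114 CPM in DMSO (-2.46 ± 0.23), and CXCL1 had 6.85, 6.46, 6.82 and 7.31 CPM at 2 h, against 30.1, 32.2, 32.9 and 30.6 CPM in DMSO (-2.18 ± 0.17). HBEGF, a ligand of the EGF receptor, averaged 1.04 ± 0.39 CPM at 2 h and 9.38 ± 1.1 CPM in DMSO (-3.11 ± 0.16), and IL1B averaged 2.53 CPM at 2 h and 10.9 CPM in DMSO (-2.05 ± 0.24). PDGFA, IL16 and LTB fell as well, and IL23A rose (2.76 CPM at 2 h, 1.12 CPM in DMSO). IL16 shares 45.2% of its exon bases with STARD5 in GENCODE 29. Of 21 components and feedback genes of NF-kB, the pathway that drives many of these ligands, 2 fell and 1 rose (median 0.09). The share called was 14.3%, against 6.58% of all genes. TNFAIP3, a deubiquitinase that restrains NF-kB, had 5.46, 4.69, 4.70 and 4.14 CPM at 2 h, against 19.8, 19.5, 19.8 and 18.2 CPM in DMSO (-2.01 ± 0.09). TRAF3 fell too (31.5 ± 1.4 CPM at 2 h, 68.3 ± 4.5 CPM in DMSO). NFKBIZ, an atypical nuclear IkB protein, rose to 106 ± 5.3 CPM at 2 h, against 50.1 ± 3.5 CPM in DMSO (1.08 ± 0.08), and NFKBIA, the classical inhibitor, was at 0.22 ± 0.06. The list was thus split, in contrast to the cytokines.

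Among 49 G-protein-coupled receptors and RGS proteins 9 fell and 4 rose (median -0.01). The share called was 26.5%, against 6.58% of all genes. GPR3, which signals to cAMP without a known ligand in most cells, was nearly lost, at 0.111, 0.109, 0.103 and 0.271 CPM at 2 h, against 5.67, 6.25, 6.48 and 5.16 CPM in DMSO (-4.61 ± 0.25). GPR84, a receptor of medium-chain fatty acids on myeloid cells, had 1.17, 0.545, 0.770 and 0.704 CPM at 2 h, against 17.1, 15.2, 16.6 and 16.3 CPM in DMSO (-4.23 ± 0.14, limma adjusted p = 1.23e-20). Both receptors fell to a small remnant. HRH2, a histamine receptor, averaged 22.2 ± 0.68 CPM at 2 h and 58.9 ± 3.2 CPM in DMSO (-1.40 ± 0.05), and HRH1, F2RL3 and ADORA2A were among the others that fell. RGS16 and RGS19, which speed GTP hydrolysis on G-alpha subunits, fell to 5.32 ± 0.22 and 54.7 CPM at 2 h, against 18.1 ± 0.62 and 117 CPM in DMSO. PTGER4, a receptor of prostaglandin E2, rose to 61.7, 65.6, 66.2 and 58.0 CPM at 2 h, against 27.2, 26.7, 27.6 and 28.3 CPM in DMSO (1.19 ± 0.06), and GPR183, an oxysterol receptor, rose as well (1.18 ± 0.10). LPAR5 and S1PR5 completed the 4 but had only 3 and 2 read equivalents in DMSO, and their fold is not given. Other deep falls outside the lists were LGALS12, a galectin (8.19, 10.5, 9.08 and 9.21 CPM at 2 h, against 73.7, 71.2, 73.2 and 65.8 CPM in DMSO, -2.93 ± 0.29), and ANKRD22 (0.700 ± 0.031 CPM at 2 h, 7.89 ± 0.26 CPM in DMSO, -3.31 ± 0.32).

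Genes of the FOXO programme, known from quiet, growth factor deprived cells, were prominent among the rises. Of 26 measured FOXO factors and targets, genes switched on when phosphoinositide 3-kinase and AKT are low, 9 rose and none fell (median 0.71). That is 34.6% of the list, against 3.23% of all genes called higher. At an adjusted p below 0.05, 20 were higher, beside 4086 of all 13033 genes. KLHL24, a Kelch adaptor of ubiquitin ligases, had 32.0, 30.5, 31.9 and 27.7 CPM at 2 h, against 4.76, 5.64, 5.03 and 4.8 CPM in DMSO (2.57 ± 0.06, limma adjusted p = 1.69e-24). CCNG2, an atypical cyclin of resting cells, had 66.3, 71.1, 73.4 and 66.2 CPM at 2 h, against 12.8, 14.4, 13.7 and 15.8 CPM in DMSO (2.28 ± 0.06). PNRC1 had 80.5, 81.1, 83.9 and 87.5 CPM at 2 h, against 24.7, 24.4, 22.2 and 25.5 CPM in DMSO (1.78 ± 0.05). These 3 rose with little spread and at levels well above the floor. YPEL3 averaged 32.5 ± 4.1 CPM at 2 h and 7.20 ± 0.74 CPM in DMSO (2.15 ± 0.29), and CREBRF (1.77 ± 0.09), TSC22D3, the glucocorticoid-induced leucine zipper (1.69 ± 0.06), FBXO32 (1.61 ± 0.16), PIK3IP1, an inhibitor of phosphoinositide 3-kinase (1.3 ± 0.17), and the factor FOXO4 (1.12 ± 0.08) made up the 9. FOXO3 (0.59 ± 0.05) and FOXO1 (0.26 ± 0.11) were higher in every library at 2 h without a call. IRS2, a known FOXO target in other tissues, was lower (-0.25 ± 0.05).

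TXNIP and ARRDC3, alpha-arrestins that help remove nutrient transporters and receptors from the cell surface, were the 2 of 5 members that rose. That is 40% of a small list, against 3.23% of all genes called higher. TXNIP, which also binds thioredoxin, added more CPM than any other called gene. It had 576, 576, 572 and 563 CPM at 2 h, against 177, 175, 181 and 180 CPM in DMSO (1.68 ± 0.03, limma adjusted p = 9.37e-26). ARRDC3 had 22.8, 21.5, 21.7 and 18.5 CPM at 2 h, against 3.58, 3.70, 3.35 and 3.38 CPM in DMSO (2.55 ± 0.09). ARRDC1 did not follow (0.18 ± 0.06). The forkhead motif GTAAACA, read on both strands, was found in 5.06% of the promoters of genes that rose, 2.4% of those that fell and 2.33% of all tested, with 3.41% over all RefSeq promoters. It lay in 2 of 8 promoters of FOXO list members that rose and in 0 of 16 of those not called. Its presence does not show a bound site. The motif was absent from the ARRDC3 window and present in that of CCND3, which fell. The TXNIP promoter holds it upstream of the start and is shown for the called gene that added the most CPM, with the motif in capitals (GRCh38.p14, chr1:145996677-145996723, minus strand).
TXNIP: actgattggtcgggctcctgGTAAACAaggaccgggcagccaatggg

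Genes for cell death moved in both directions. Of 16 BCL2 family members, 2 rose and 2 fell, 25% of the list against 6.58% of all genes. BMF, a BH3-only protein that neutralises protective BCL2 proteins, had 57.5, 59.8, 58.0 and 61.0 CPM at 2 h, against 6.34, 4.91, 4.87 and 5.10 CPM in DMSO (3.46 ± 0.06, limma adjusted p = 5.59e-27). BBC3, the BH3-only protein PUMA, had 34.6, 40.1, 32.9 and 40.7 CPM at 2 h, against 18.3, 15.5, 19.7 and 15 CPM in DMSO (1.11 ± 0.08). PMAIP1, the BH3-only protein NOXA, moved opposite to them, with 6.80, 5.34, 6.57 and 5.91 CPM at 2 h, against 16.5, 18.3, 18.6 and 17.9 CPM in DMSO (-1.52 ± 0.08). BCL2A1, a protective member, fell to 0.337 CPM at 2 h, against 3.33 CPM in DMSO (-2.96 ± 0.28). The main protective genes were not called, with MCL1 at -0.46 ± 0.04, BCL2 at -0.06 ± 0.05 and BCL2L1 at -0.03 ± 0.07. BCL2L11, the BH3-only protein BIM, was higher in every 2 h library (70.5 ± 6.6 CPM at 2 h, 57.0 ± 3.7 CPM in DMSO, 0.30 ± 0.13, limma adjusted p = 0.0497) without reaching the size of a call.

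Other large rises belonged to no single list. ENHO, which encodes the secreted peptide adropin, had 10.3, 10.9, 10.1 and 9.86 CPM at 2 h, against 0.511, 0.509, 0.446 and 0.415 CPM in DMSO (4.18 ± 0.17). SH2D3C, an adaptor with an SH2 domain, averaged 12.1 ± 0.80 CPM at 2 h and 1.81 ± 0.60 CPM in DMSO (2.73 ± 0.15). STON1, an endocytic protein, averaged 15 ± 2.2 CPM at 2 h and 2.78 ± 0.36 CPM in DMSO (2.39 ± 0.15). STON1 shares 38.8% of its exon bases with STON1-GTF2A1L in GENCODE 29. PLD4, an endolysosomal nuclease of myeloid cells, had 19.5, 21.9, 20.9 and 20.2 CPM at 2 h, against 4.45, 3.19, 4.91 and 3.79 CPM in DMSO (2.32 ± 0.08). PDK4, a kinase that switches off pyruvate dehydrogenase, averaged 12.6 ± 1.5 CPM at 2 h and 2.89 ± 0.13 CPM in DMSO (2.08 ± 0.17). The zinc finger gene ZNF467 (2.22 ± 0.13) and the non-coding LINC02724 (2.41 ± 0.17) rose likewise. SCARA5, a ferritin receptor at 3.70 CPM at 2 h and 0.127 CPM in DMSO, had a log2 fold change of 4.15 but did not meet the naming minimum of 5 CPM and was named after its values were seen. AMIGO3 was also selected (2.11 ± 0.78, limma adjusted p = 0.0253), with 5.43, 5.91, 6.45 and 5.01 CPM at 2 h, against 2.42, 3.83, 2.96 and 0 CPM in DMSO. The call rests on DMSO replicate 4, without which the log2 fold change was 0.89, and on 2 h replicate 3, without which the limma adjusted p was 0.051. Also, 99.7% of the exon bases of AMIGO3 are shared with GMPPB in GENCODE 29, so its reads cannot be assigned with certainty. Among abundant genes, AHNAK, a giant scaffold protein, had 601, 630, 665 and 569 CPM at 2 h, against 282, 285, 250 and 298 CPM in DMSO (1.14 ± 0.06), LINC00926 averaged 534 ± 31 CPM at 2 h and 263 ± 14 CPM in DMSO (1.02 ± 0.07), and PDCD4, an inhibitor of translation initiation, averaged 225 ± 2.5 CPM at 2 h and 97.1 ± 4.0 CPM in DMSO (1.21 ± 0.04). The LINC00926 call ends without DMSO replicate 4 (0.99) or 2 h replicate 4 (0.98). PDCD4 shares 34.5% of its exon bases with BBIP1. Of 13 Krüppel-like factors only KLF2 was called, 7.69% of the list, which is near the 6.58% of all genes. KLF2 had 160, 163, 164 and 194 CPM at 2 h, against 57.7, 58.2, 65.1 and 52.3 CPM in DMSO (1.54 ± 0.09). KLF7 was at 0.94 ± 0.07 and KLF9 at 0.79 ± 0.07. Of 14 genes of mRNA decay and the BTG family 2 fell, 14.3% of the list against 3.35% of all genes called lower. Among them was ZFP36L1, which binds AU-rich messages (1.91 ± 0.73 CPM at 2 h, 5.81 ± 0.17 CPM in DMSO). BTG1 was higher without a call (0.90 ± 0.05).

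Part of the interferon response was higher at 2 h. Of 46 measured members, 9 rose and none fell (median 0.25), 19.6% of the list against 3.23% of all genes called higher. At an adjusted p below 0.05, 28 were higher, beside 4086 of all 13033 genes. SAMD9L, an antiviral and growth-restraining factor, had 19.9, 21.2, 19.1 and 18.8 CPM at 2 h, against 3.06, 4.37, 2.63 and 3.5 CPM in DMSO (2.53 ± 0.10, limma adjusted p = 2.41e-19). Its neighbour in the genome SAMD9 had 27.9, 32.4, 34.0 and 26.3 CPM at 2 h, against 9.81, 13.2, 13.0 and 15 CPM in DMSO (1.24 ± 0.09). The signalling factors STAT2 and IRF9, partners in the complex ISGF3, rose together. STAT2 had 90.6, 83.0, 80.4 and 90.9 CPM at 2 h, against 28.5, 31.2, 29.3 and 30.0 CPM in DMSO (1.53 ± 0.05), and IRF9 had 38.6, 39.6, 37.7 and 40.3 CPM at 2 h, against 19.4, 17.3, 19.6 and 18 CPM in DMSO (1.07 ± 0.06). IRF9 shares 93.5% of its exon bases with the annotated gene AL136295.5. IRF7 (1.17 ± 0.11), RSAD2 (1.32 ± 0.17), IFIH1, a sensor of double-stranded RNA (1.00 ± 0.11), IFIT1 (1.11 ± 0.26), GBP2 (1.09 ± 0.19) and IFIT2 completed the 9. IFIT1 and GBP2 were scarce, with 34 and 41 read equivalents in DMSO and 77 and 89 at 2 h. IFIT2 had 19 read equivalents in DMSO, most of them in replicate 3, and 95 at 2 h. The classical effectors ISG15 (0.06 ± 0.13) and MX1 (0.13 ± 0.16) overlapped between the groups. In the list of JAK, STAT, SOCS and PIM genes 3 of 22 rose, 13.6% against 3.23% of all genes called higher. They were STAT2, STAT5A (2.98 CPM at 2 h, 1.43 CPM in DMSO) and the feedback inhibitor SOCS1 (5.99 CPM at 2 h, 2.12 CPM in DMSO). The kinase JAK2 (0.92 ± 0.06) was higher and PIM3 (-0.95 ± 0.06) lower without a call.

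The interferon-stimulated response element, which ISGF3 binds, was found in the promoters of 3 of 6 interferon genes that rose and of 16 of 31 that were not called. The element did not separate the members that rose. Among all promoters of genes that rose it was found in 6.65%, against 2.99% of those that fell and 2.99% of all tested. The stretches from SAMD9 (chr7:93118086-93118135, minus strand), IFIT1 (chr10:89392487-89392549, plus strand) and IFIH1 (chr2:162318808-162318857, minus strand) show the elements in capitals, all in GRCh38.p14.
SAMD9: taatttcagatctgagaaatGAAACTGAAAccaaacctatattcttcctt
IFIT1: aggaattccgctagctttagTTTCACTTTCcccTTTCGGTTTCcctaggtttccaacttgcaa
IFIH1: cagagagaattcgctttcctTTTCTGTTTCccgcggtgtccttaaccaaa

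Several receptor tyrosine kinases, which feed signals into RAS, rose. Of 10 measured, 5 rose and none fell (median 0.67), 50% against 3.23% of all genes called higher. FLT3, the receptor of FLT3 ligand on blood progenitors, had 132, 136, 136 and 122 CPM at 2 h, against 61.7, 57.9, 61.4 and 60.6 CPM in DMSO (1.12 ± 0.04, limma adjusted p = 1.56e-20). FGFR3 had 34.7, 37.5, 36.0 and 36.9 CPM at 2 h, against 10.7, 9.75, 10.3 and 8.29 CPM in DMSO (1.89 ± 0.07). CSF1R, the receptor of macrophage colony-stimulating factor, had 27.7, 30.5, 29.5 and 26.2 CPM at 2 h, against 13.8, 13.1, 13.5 and 12.1 CPM in DMSO (1.11 ± 0.06). The other called kinases were scarce, ERBB2 at 7.08 CPM at 2 h and 3.38 CPM in DMSO, and AXL at 1.3 CPM at 2 h and 0.554 CPM in DMSO. INSR, the insulin receptor, was higher without a call (0.64 ± 0.05). Cytokine receptors went both ways, with 2 of 26 higher and 5 lower (26.9% called, against 6.58% of all genes). IL17RA, a subunit of interleukin-17 receptors, had 104, 114, 106 and 114 CPM at 2 h, against 424, 415, 395 and 413 CPM in DMSO (-1.91 ± 0.05), and TGFBR1, a receptor of TGF-beta, averaged 79.5 CPM at 2 h and 188 CPM in DMSO (-1.24 ± 0.06). IL7R, IL15RA and IL18R1 fell as well. IL10RA (13.7 CPM at 2 h, 5.11 CPM in DMSO) and CSF2RA (3.11 CPM at 2 h, 1.43 CPM in DMSO) rose.

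Of 45 members of the RAS pathway itself 2 rose and none fell, 4.44% of the list, which is near the 3.23% of all genes called higher. NRAS, the mutated gene of this line, had 95.5, 98.2, 92.5 and 85.4 CPM at 2 h, against 81.3, 95.2, 89.9 and 97.2 CPM in DMSO (0.03 ± 0.05, limma adjusted p = 0.579), and the groups overlapped. HRAS was lower in every 2 h library (29.5 ± 1.3 CPM at 2 h, 42.9 ± 5.4 CPM in DMSO, -0.53 ± 0.07), without the size of a call. The exchange factors SOS1 (0.69 ± 0.06), SOS2 (0.51 ± 0.05) and RASGRP4 (0.98 ± 0.06) were higher, and RASAL3, a GTPase-activating protein, lower (-0.64 ± 0.06). The 2 called genes were the adaptor GAB1 (14.3 CPM at 2 h, 6.48 CPM in DMSO) and the kinase MAP3K8 (3.83 CPM at 2 h, 1.86 CPM in DMSO). In the list of phosphoinositide 3-kinase and mTOR, 1 of 40 rose and 1 fell. That is 5% of the list, near the 6.58% of all genes called in either direction. INPP4B, a phosphatase of 3-phosphoinositides, fell to 21.4 ± 1.4 CPM at 2 h, against 63.3 ± 3.6 CPM in DMSO (-1.56 ± 0.13), and the riser, PIK3R6, was under 1 CPM in both groups. PIK3CG was lower without a call (-0.68 ± 0.05).

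For mitosis genes the share called, 4.76%, was near the 6.58% of all genes. Myeloid identity factors (5.56%) and myeloid surface and granule genes (5.13%) were called in 1 direction, lower. So were circadian factors (23.1%) and TGF-beta, SMAD and Notch genes (9.38%), against 3.35% of all genes called lower. Each of these 4 shares rests on 2 or 3 genes. For p53 targets, called in both directions, the share was 20%. None of 39 DNA replication genes was called, although 21 were lower at an adjusted p below 0.05, RRM2 of ribonucleotide reductase by the most among those named (98.5 ± 2.6 CPM at 2 h, 184 ± 9.5 CPM in DMSO, -0.90 ± 0.04). Of 42 mitosis genes, CDC25C rose (25.1 ± 0.38 CPM at 2 h, 12 ± 1.5 CPM in DMSO, 1.07 ± 0.08) and PLK3, a stress-responsive polo kinase, fell (1.47 ± 0.40 CPM at 2 h, 10.6 ± 1.2 CPM in DMSO, -2.79 ± 0.16). Of 25 p53 targets 2 rose and 3 fell, with AEN, a nuclease, the strongest (19.1 ± 1.3 CPM at 2 h, 57.3 ± 3.2 CPM in DMSO, -1.58 ± 0.05), and MDM2 not called, with overlapping groups (-0.06 ± 0.05). Of 13 circadian factors 3 fell, the repressors PER2 (9.98, 9.97, 10.6 and 10.5 CPM at 2 h, against 35.7, 38.3, 36.9 and 37.7 CPM in DMSO, -1.85 ± 0.07) and NR1D1 (-1.81 ± 0.16), and TEF (-1.11 ± 0.10). In the list of TGF-beta, SMAD and Notch genes 3 of 32 fell, the Notch ligand DLL4 (2.7 CPM at 2 h, 8.78 CPM in DMSO), the Notch feedback gene NRARP (0.618 CPM at 2 h, 2.94 CPM in DMSO) and ENG (23.9 CPM at 2 h, 50.1 CPM in DMSO). None of 18 elongation genes was called, with HEXIM1, the inhibitor of the elongation kinase P-TEFb, nearest (0.93 ± 0.05). Of 36 myeloid identity factors, 2 fell. CEBPD, one of them, averaged 64.6 ± 3.2 CPM at 2 h and 155 ± 21 CPM in DMSO (-1.25 ± 0.07), while CEBPA (-0.11 ± 0.06) and SPI1 (0.14 ± 0.07) overlapped between groups. Of 39 surface and granule genes CD14 and CD163, receptors of monocytes and macrophages, fell. CD14 had 35 read equivalents over 4 libraries at 2 h and 262 in DMSO. None of 5 HLA class II and 13 HLA class I genes was called, the class II activator CIITA being at 0.61 ± 0.10.

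**Figure D3:**
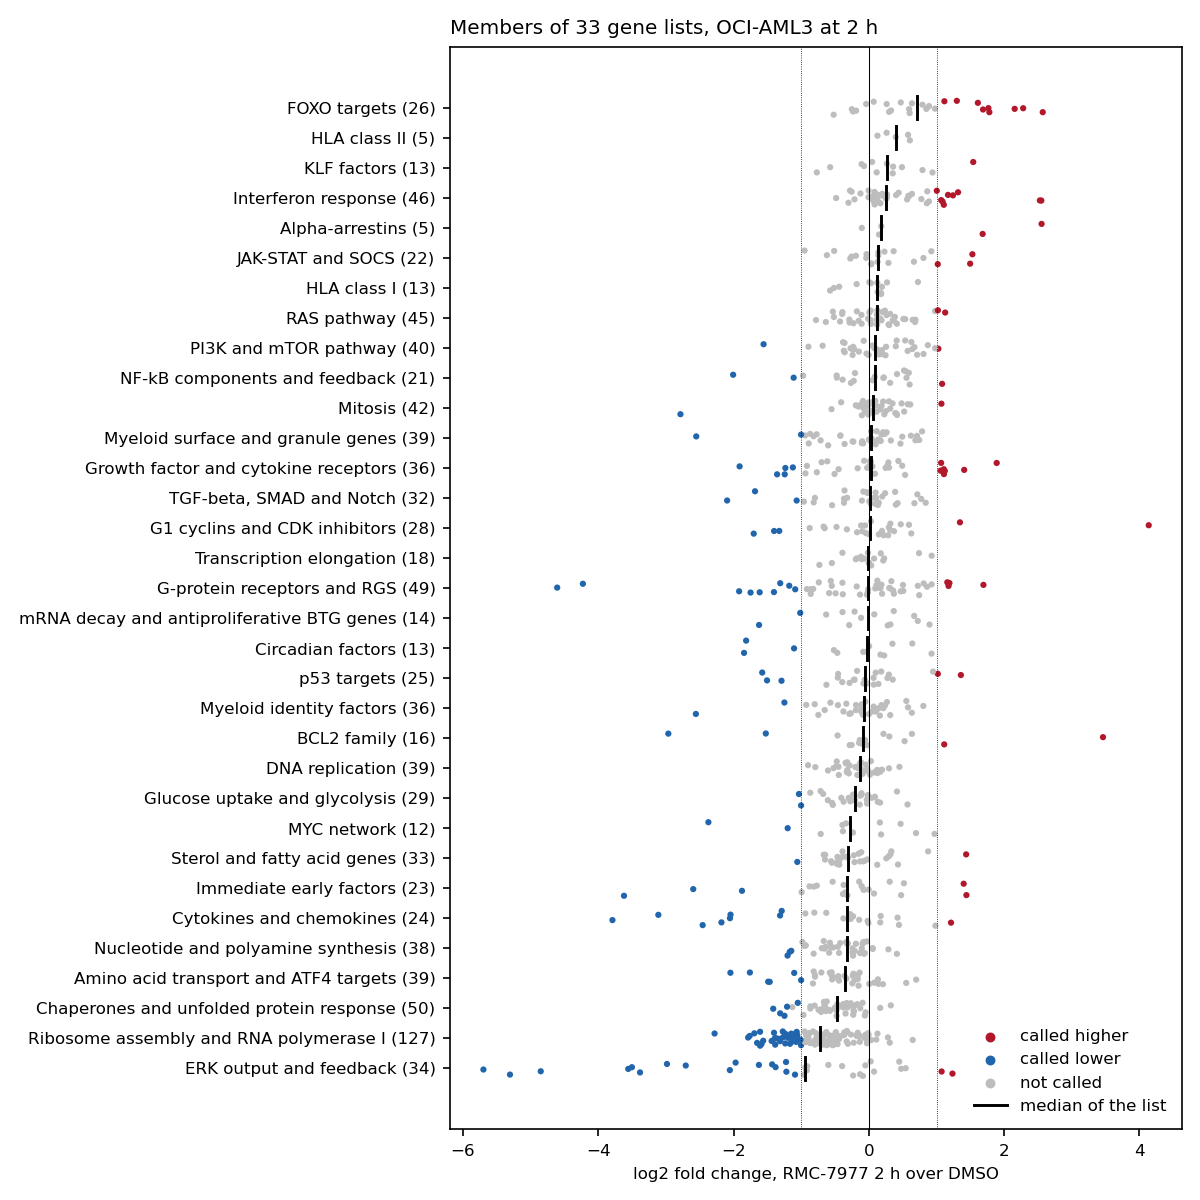
Log2 fold change of RMC-7977 at 2 h over DMSO (horizontal axis) for each measured member of 33 gene lists (rows, members in brackets), with called genes in colour and the median as a black bar; lists are ordered by their median. ERK output (-0.95) and ribosome assembly (-0.72) have the lowest medians and FOXO targets (0.71) the highest, and the ERK output list spreads the widest to the left.

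How far this response differed from that of Molm-14, a line driven by an internal tandem duplication of FLT3, was tested as the difference of the 2 log2 fold changes, OCI-AML3 minus Molm-14. This difference was called for 735 genes, 5.64% of those tested, 276 with a positive and 459 with a negative value. Of the 421 genes that rose in OCI-AML3, 146 had a called difference, positive in 131 of them. Of the 437 that fell, 111 had one, negative in 100 of them. A negative value there covers deeper falls in OCI-AML3 and genes that were flat or higher in Molm-14. Since these genes were chosen by their OCI-AML3 change, which is 1 term of the difference, the sign is largely set by that choice. The counts do not show which line responded more strongly. Some of these differences arise where Molm-14 hardly expresses the gene. Molm-14 was under 1 CPM in both of its groups for 52 of the 131 and 34 of the 100 genes. PDK4 and CXCL1 are examples, listed at 0 CPM in Molm-14 at 2 h and in DMSO, so that their difference only restates the OCI-AML3 change.

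Of the 421 genes that rose in OCI-AML3, 127 were called higher and 1 was called lower in Molm-14. Of the 437 that fell, 207 were called lower there and 6 higher. Opposite movement among genes expressed in both lines was thus limited to few called genes, and some examples follow. CAMKK1, a kinase upstream of CaMKs, fell in OCI-AML3 (4.06, 5.08, 5.69 and 6.25 CPM at 2 h, against 24.0, 21.6, 22.7 and 20.9 CPM in DMSO) and rose in Molm-14 (46.3 CPM at 2 h, 5.88 CPM in DMSO), a difference of -5.04 (limma adjusted p = 1.07e-19). HEG1, an endothelial-type membrane protein, likewise fell in OCI-AML3 (6.18 ± 0.45 CPM at 2 h, 14.1 ± 1.1 CPM in DMSO) and rose in Molm-14 (16.8 CPM at 2 h, 3.42 CPM in DMSO), a difference of -3.44. JAG2, a Notch ligand, was at -0.96 ± 0.08 in OCI-AML3 without a call and at 2.77 in Molm-14. JUN was at -0.38 in OCI-AML3 and at 2.45 in Molm-14, a difference of -2.84. Genes that rose in both lines could differ widely in size, and KLF2, with a log2 fold change of 1.54 in OCI-AML3 and 6.61 in Molm-14, had the largest such gap among the named genes. KLF2 was at 4.09 CPM in Molm-14 DMSO and at 58.3 ± 5.2 CPM in OCI-AML3 DMSO, so the lines also started from different levels. KIAA1522 (1.25 in OCI-AML3, 4.78 in Molm-14), FGFR3 (1.89 and 4.57) and TSC22D3 (1.69 and 3.87) showed the same order. The size of the KIAA1522 difference depends on the prior of the scale, since Molm-14 had few reads of it in DMSO. For RHOB (0.95 ± 0.22 in OCI-AML3, not called) the Molm-14 DMSO level was 0.0418 CPM, and the difference depends on the prior of the scale.

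In the other direction, falls that were shallower in OCI-AML3 were led by RGS16, with 5.63, 5.12, 5.23 and 5.31 CPM at 2 h, against 18.8, 18.4, 18 and 17.3 CPM in DMSO, and with 4.52 CPM at 2 h and 151 CPM in DMSO in Molm-14 (difference 3.28, limma adjusted p = 3.21e-21). F3, the initiator of coagulation, fell to 4.08 ± 0.45 CPM at 2 h in OCI-AML3, against 9.63 ± 0.50 CPM in DMSO, and to 10.1 CPM in Molm-14, against 121 CPM in DMSO (difference 2.34). EGR1 (difference 1.75) fell less deeply in OCI-AML3, and FOS, not called in OCI-AML3, was at -1.33 in Molm-14 (difference 1.25). KCNK5, a potassium channel, was at -0.67 ± 0.10 in OCI-AML3 and -2.88 in Molm-14, and CD1D at 0.19 ± 0.21 and -1.94. OSR2 rose in OCI-AML3 (56.2, 57.3, 56.9 and 64.1 CPM at 2 h, against 18.6, 18.1, 21.7 and 17.7 CPM in DMSO) and was lower in Molm-14 (4.01 CPM at 2 h, 6.93 CPM in DMSO), a difference of 2.39. Falls that were deeper in OCI-AML3 included CCND1 (difference -1.43), GPR84 (-2.64) and DUSP2 (-2.09). LPCAT1, HRH2, PDCD4 and LINC00926 changed in OCI-AML3 and stood at -0.09, -0.01, 0.08 and -0.02 in Molm-14, and each of these differences was called. For the ribosome assembly list, by contrast, 1 of 127 members had a called difference, and the medians were -0.72 in OCI-AML3 and -0.79 in Molm-14.

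**Figure D4:**
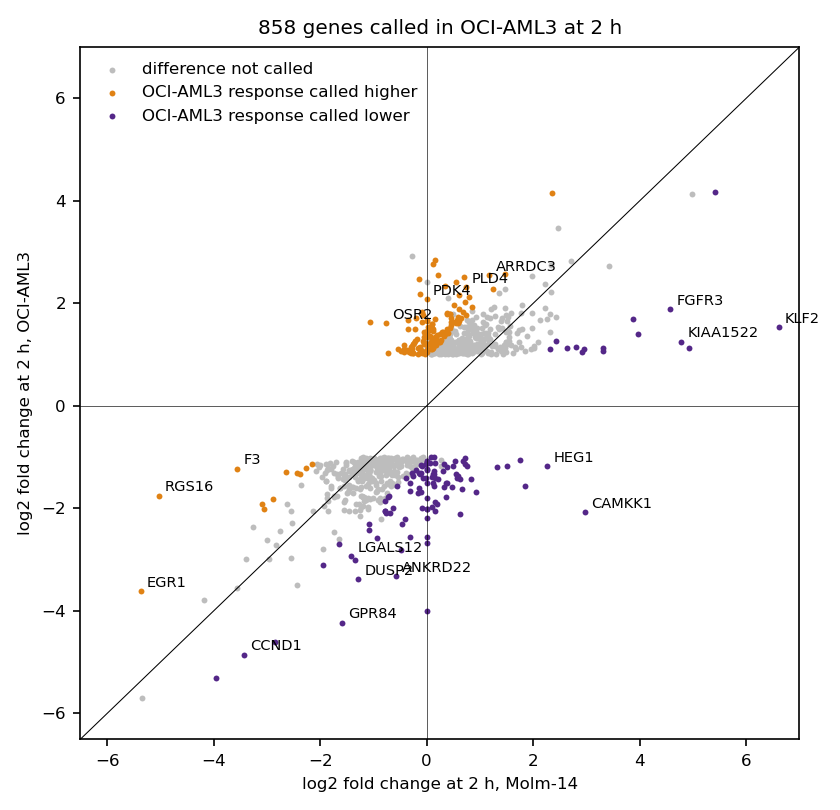
Log2 fold change at 2 h in OCI-AML3 (vertical axis) against that in Molm-14 (horizontal axis) for the 858 genes called in OCI-AML3, coloured by whether the difference between the lines was called. KLF2 lies far to the right of the diagonal of equal change and RGS16 far to its left; the gap around 0 on the vertical axis comes from the choice of called genes.

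The same DMSO libraries serve the 24 h group of OCI-AML3, so levels are given side by side in the order DMSO, 2 h and 24 h without a comparison of the responses. Some genes were low at both times of treatment. DUSP6 averaged 11.8 CPM in DMSO, 0.201 CPM at 2 h and 0.170 CPM at 24 h (n = 3), and MYC 374, 72.3 and 56.1 CPM. BMF averaged 5.30, 59.1 and 126 CPM, KLHL24 5.06, 30.5 and 97.8 CPM, PDK4 2.89, 12.6 and 71.9 CPM and PLD4 4.08, 20.6 and 196 CPM, each with its highest level at 24 h. HSPA8 averaged 2789, 1175 and 305 CPM. ARRDC3 was high at 2 h alone, with 3.5 CPM in DMSO, 21.1 CPM at 2 h and 4.47 CPM at 24 h. CEBPD was low at 2 h alone, with 155, 64.6 and 245 CPM. CCND3 (256, 78.4 and 134 CPM) and IL17RA (412, 109 and 173 CPM) were lowest at 2 h.

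**Figure D5:**
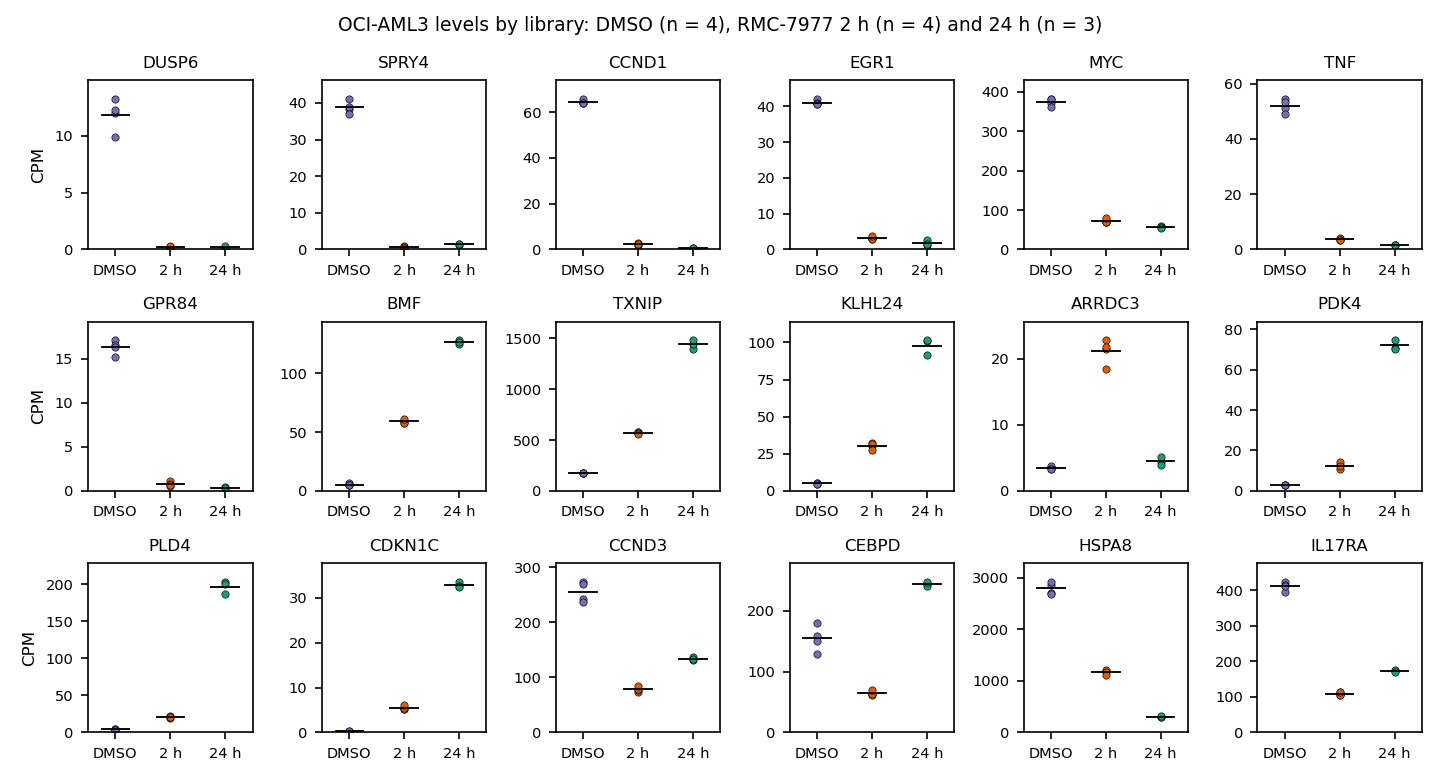
CPM of 18 genes in each OCI-AML3 library in DMSO (4 points), at 2 h (4 points) and at 24 h of RMC-7977 (3 points), with the group mean as a bar and each vertical axis starting at 0. ARRDC3 peaks at 2 h (21.1 CPM), CEBPD dips there (64.6 CPM), and BMF, TXNIP, PDK4 and PLD4 are highest at 24 h.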

How the data were processed

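The labels list 24 poly(A) RNA libraries, and the authors' deposited table of log2 CPM holds 23 of them here, for 13033 genes. The authors' pipeline, per the submitters' processing notes, used build hg38. It named the aligner STAR 2.7.8a and the quantifier RSEM 1.3.3. It also named the trimmer Trimmomatic 0.36. The strand setting of the counting is not given in the sources used here. The lowest value matched a prior of 0.105 CPM, which was subtracted to print CPM. The spacing of low values gave effective sizes of 16858600 to 22376600 reads for the 8 libraries compared, and 74.7% to 80.5% of values up to 20 reads came within 0.05 of a whole read. Read equivalents come from these sizes and cover counting error only.

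Group means of all 6 groups were fitted with limma 3.58.1 in R 4.3.3 (trend and robust options), with Benjamini-Hochberg adjustment over all genes, after a test on simulated data. The DMSO libraries are shared by the 2 h and 24 h groups. One OCI-AML3 library at 24 h is not analysed here, and the results of some genes are not reported here. Alternatives were another pseudocount, filter, scaling, threshold and model, a replicate block, and each library left out.

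Genes named were the 15 largest rises and 15 largest falls at 5 CPM or more with groups apart, the 5 called genes in each direction with the largest change in mean CPM, up to 3 members of each list by adjusted p, the 6 largest differences between the lines in each direction, and 16 genes of the pathway. Other list members were named after their values were seen. The members and lists were chosen with earlier results of these data known. Coordinates and promoters are from RefSeq (GRCh38.p14), which matched 12990 genes, and exon overlaps from GENCODE 29. The promoter motifs searched on both strands were the E-box CACGTG and, for forkhead factors, GTAAACA, with the AP-1 motif TGACTCA, the cAMP response element TGACGTCA, the ETS motif CCGGAAGT, the interferon-stimulated response element and the CArG box.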

Additional observations from a re-analysis of the deposited data

Results flagged for a closer look

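Some libraries stood apart from the other 3 of their group. Dixon's criterion was applied to the log2 values of groups of 4, and chance picks out about 1 in 20 groups, so single cases carry little weight. At 2 h, replicate 4 stood apart for GPR3, KLF2, KLF7, MYC, PFKP and OSR2. Replicate 2 or 3 did so for STON1, PDCD4 and CIITA. On the second principal component (7.38% of the variance) replicate 4 at 2 h lay at -18.1, against 3.81 to 7.07 for replicates 1 to 3. The DMSO libraries ran from -10.5 to 14.4. Without replicate 4 at 2 h, 422 genes were called higher and 463 lower. STON1 at 2 h was 18.3 CPM in replicate 3, against 13.7 to 14 CPM in the others. AMIGO3 in DMSO was 0 CPM in replicate 4, against 2.42 to 3.83 CPM in the others. PDK4 in DMSO was 3.08 CPM in replicate 3, against 2.81 to 2.85 CPM in the others. CCND1 in DMSO was 65.8 CPM in replicate 2, against 63.9 to 64.2 CPM in the others. GPR3 at 2 h was 0.271 CPM in replicate 4, against 0.103 to 0.111 CPM in the others. EGR1 in DMSO was 42.1 CPM in replicate 1, against 40.7 to 40.9 CPM in the others. PDCD4 at 2 h was 221 CPM in replicate 2, against 226 to 227 CPM in the others. KLF2 at 2 h was 194 CPM in replicate 4, against 160 to 164 CPM in the others. KLF7 at 2 h was 37.6 CPM in replicate 4, against 40.2 to 40.6 CPM in the others. MYC at 2 h was 79.7 CPM in replicate 4, against 69.3 to 70.2 CPM in the others. PFKP at 2 h was 130 CPM in replicate 4, against 122 to 123 CPM in the others. DDB2 in DMSO was 49.6 CPM in replicate 3, against 45.5 to 46 CPM in the others. ELL in DMSO was 51.9 CPM in replicate 4, against 54.9 to 55.1 CPM in the others. CIITA at 2 h was 5.59 CPM in replicate 2, against 7.59 to 7.97 CPM in the others. CALR in DMSO was 1126 CPM in replicate 1, against 1039 to 1052 CPM in the others. OSR2 at 2 h was 64.1 CPM in replicate 4, against 56.2 to 57.3 CPM in the others.

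The response at 2 h differed between the lines by a test of the difference itself (limma, adjusted p below 0.05 and a size of at least 1) for these named genes, as OCI-AML3 minus Molm-14 on the log2 scale. It was positive for RGS16 (3.28), OSR2 (2.39), F3 (2.34), KCNK5 (2.21), CD1D (2.13), PDK4 (2.08), LINC02724 (1.85), EGR1 (1.75), PLD4 (1.59), YPEL3 (1.54), NFKBIZ (1.46), ARRDC3 (1.37), FOS (1.25), PDCD4 (1.13), KLHL24 (1.10), NR1D1 (1.07), LINC00926 (1.04), TNFAIP3 (1.04) and HK2 (1.04). It was negative and largest in size for KLF2 (-5.06), CAMKK1 (-5.04), RHOB (-4.24), JAG2 (-3.73), KIAA1522 (-3.53), HEG1 (-3.44), JUN (-2.84) and ANKRD22 (-2.74). Smaller negative values were found for FGFR3 (-2.68), GPR84 (-2.64), ZFP36L1 (-2.29), DUSP2 (-2.09), GPR3 (-1.76), PHLDA2 (-1.66), LGALS12 (-1.52) and BHLHE40 (-1.45). The smallest were those of CCND1 (-1.43), HRH2 (-1.40), DUSP6 (-1.35), ENHO (-1.24), BBC3 (-1.20), HBEGF (-1.17), LPCAT1 (-1.08) and NOTCH1 (-1.06). PDK4 was listed at 0 in Molm-14. The values of ENHO, RHOB and KIAA1522 depend on the prior of the scale, since Molm-14 was under 0.5 CPM in DMSO, and so does that of GPR3, which was under 0.5 CPM in Molm-14 at 2 h. ANKRD22, YPEL3, LGALS12 and LINC02724 were under 1 CPM in both Molm-14 groups, so the prior bears on their values too.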

How the results depend on the processing

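With 421 genes called higher and 437 lower as the main counts, a pseudocount of 1 CPM gave 205 higher and 357 lower, a threshold of 1.5-fold gave 1387 and 1262, and one of 4-fold gave 31 and 57. The cause was not tested beyond the construction of these settings, a pseudocount that shrinks genes with few reads and a threshold that sets the size. Scaling to library totals gave 509 higher and 384 lower and moved the median of all genes to 0.09, against 0.02 as deposited and 0.05 with median-of-ratios scaling, which gave 443 and 415. Voom on read equivalents gave 475 and 466, and 855 of its 941 calls were shared with the main calls. Leaving out 1 library gave 422 to 436 higher and 433 to 463 lower. For the difference between the lines, with 276 positive and 459 negative, a pseudocount of 1 CPM gave 134 and 336, library totals gave 311 and 413, and leaving out 1 library gave 265 to 287 and 436 to 478.

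With the replicate number as a block, 420 genes were higher and 437 lower. Same-numbered libraries of OCI-AML3 did not deviate together, with correlations of 0.0142, 0.0447, -0.305 and -0.353, so the numbers were not taken as pairs. Among the named genes, 2501 values kept their direction and side of the threshold, 9 lost the call and 16 gained it. The values of 2 uncalled genes changed sign, BCL2 to 0.0123 with library totals and NRAS to -0.0202 without DMSO replicate 1. NRAS ranged from -0.0202 to 0.0722 when 1 library was left out. With library totals FKBP4 (-0.98) and SLC16A1 (-0.96) missed the size of a call, and AMIGO3 had an adjusted p of 0.178 in limma on the compared groups alone. Genes with few reads, such as GPR3 and DUSP6 at 2 h, have levels limited by depth.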
